A study of Mus musculus with 90 samples.

Results

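The genes described here are 6 members of the *Cyp2a* and *Cyp2b* families of cytochrome P450 enzymes: *Cyp2a4*, *Cyp2a5*, *Cyp2a22*, *Cyp2b9*, *Cyp2b10* and *Cyp2b13*, taken from 27654 genes in each of the 4 Salmon count tables by their symbols. They were chosen by what the same data had shown at ZT12 (Zeitgeber time, hours since lights on), in the contrast of caloric restriction with the control diet and in the contrasts of genotype within each diet. The contrasts of genotype and of diet at ZT12 are therefore given here as a description with no test. Corticosterone at ZT12 is another contrast and was tested, and rhythm was tested on the livers of the other 5 time points. Cytochrome P450 enzymes of these families sit in the endoplasmic reticulum of hepatocytes, carry a heme group, take electrons from cytochrome P450 reductase, and add oxygen to drugs, plant compounds and steroids. In mouse liver *Cyp2a5* is the well-known coumarin hydroxylase and *Cyp2a4*, its close relative, hydroxylates testosterone. *Cyp2b10* is the classic gene induced by phenobarbital through the nuclear receptor CAR. *Cyp2a4*, *Cyp2b9* and *Cyp2b13* are known as genes that female livers express more than male livers, a sex difference set by the pattern of growth hormone secretion.

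The 90 libraries are poly(A) RNA of whole liver from male C57BL/6J mice, 20 to 21 weeks old by the reporting summary of the study, whose methods give 12 weeks as the age at the start of the diet regimen and of the handling before corticosterone. All were chow-fed, and each library held 10057544 to 39492146 counts (median 15502545). In the time series, WT livers carry the floxed allele without Cre (GRfl/fl) and GR LKO livers carry it with Cre under the albumin promoter (GRfl/fl x Alb-Cre), which deletes the glucocorticoid receptor gene *Nr3c1* in hepatocytes and leaves it in other liver cells. Livers were taken at ZT0, ZT4, ZT8, ZT12, ZT16 and ZT20, and lights went off at ZT12. On caloric restriction (cal. res.), which ended at 40% fewer calories, there were 3 livers per genotype and time, 36 in all. On the control diet (ctrl.), night-restricted feeding, there were 42 livers: 4 of each genotype at ZT8 and ZT12, 4 WT and 3 GR LKO at ZT16 and ZT20, and 3 of each at ZT0 and ZT4. A separate diet experiment at ZT12 compared 3 restricted with 3 control mice of genotype WT. The titles of these controls say AL (the usual short form of *ad libitum*) where their treatment label says night-restricted feeding. By the paper, control mice had free access to food until the last week, when they were fed in the dark phase only. Restricted mice were given their food daily at ZT12. A corticosterone experiment, also in WT mice at ZT12, compared 3 mice injected daily with corticosterone (CORT) for a week with 3 controls, all under night-restricted feeding. The methods of the study describe comparison mice injected with the vehicle, ethanol in oil. The titles of these 3 controls say NR and do not say whether they were injected. The library numbers of the restricted and the control time series come from separate runs of numbers, so diet and library set cannot be told apart there, and genotypes were compared within a diet.

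The livers matched their labels. *Nr3c1* read 70.1 to 113 CPM in the 18 WT livers on caloric restriction and 21.4 to 32.1 CPM in the 18 GR LKO livers, CPM being counts scaled to library size with TMM factors. In control-fed mice it read 73.0 to 118 CPM in 22 WT livers and 16.2 to 29.0 CPM in 20 GR LKO livers, and the genotypes did not overlap at any time on either diet. All 4 Y-linked marker genes had counts in all 90 libraries. The 7 hepatocyte markers, led by *Alb*, summed to between 67952 and 172110 CPM. A pair of libraries stood apart by genes of another organ: 10 markers of the exocrine pancreas summed to 936 CPM in WT replicate 3 at ZT12 on caloric restriction and to 478 CPM in WT replicate 2 at ZT16 on the control diet, against at most 2.97 CPM in every other library. Calls by genotype, interactions, levels per kilobase and correlations that rest on these libraries are given with and without them, and ranges of levels include them.

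Without the control-diet library with pancreas markers at ZT16, WT replicate 2, none of the 3 members called by genotype at that time with all libraries passed an adjusted p of 0.05 (edgeR adjusted p = 0.0588 for *Cyp2a4*, 0.0532 for *Cyp2b9* and 0.0882 for *Cyp2b10*). Their log2 differences were 7.95, 6.06 and 2.61 with it and 7.97, 5.94 and 2.76 without it. Of these 3, *Cyp2b10* alone had enough counts in WT livers to be counted below. The calls of the means over 5 time points were kept without it. The restricted library with pancreas markers is of ZT12, so no test by genotype at a single time and no rhythm test on the other 5 time points uses it.

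All 6 genes lie within 1041765 bases of chromosome 7 (GRCm38 25897620 to 26939384), in the order *Cyp2b10*, *Cyp2b13*, *Cyp2b9*, *Cyp2a4*, *Cyp2a5*, *Cyp2a22*. The last is on the minus strand and the others on the plus strand, with *Cyp2b23*, *Cyp2b19* and *Cyp2g1* between *Cyp2a4* and *Cyp2a5*. The identifiers, starts and ends, as in GENCODE vM21, are ENSMUSG00000074254 for *Cyp2a4* (26307169 to 26315088), ENSMUSG00000005547 for *Cyp2a5* (26835305 to 26843548), ENSMUSG00000091867 for *Cyp2a22* (26931631 to 26939384), ENSMUSG00000040660 for *Cyp2b9* (26173411 to 26210661), ENSMUSG00000030483 for *Cyp2b10* (25897620 to 25926624) and ENSMUSG00000040583 for *Cyp2b13* (26061497 to 26096197). Close relatives can exchange reads. Shared words were counted in the transcripts of GENCODE vM21, and the transcripts behind the deposited Salmon counts are not stated and may differ. Of all 31-base words in the transcripts of *Cyp2a4*, 55.9% also occur in *Cyp2a5*, and 44.9% of those of *Cyp2a5* occur in *Cyp2a4*. For *Cyp2a22* no word is shared with another member, and 34.6% are shared with its neighbour *Cyp2a12*. The shares that occur in another member are 20.3% for *Cyp2b9*, 13.7% for *Cyp2b10* and 30.5% for *Cyp2b13*. Words found in no other gene make up 41.9% of *Cyp2a4*, 45.4% of *Cyp2a5*, 65.4% of *Cyp2a22*, 73.9% of *Cyp2b9*, 80.5% of *Cyp2b10* and 59.2% of *Cyp2b13*. Salmon divides shared reads by estimate, and the sum of *Cyp2a4* and *Cyp2a5* is given beside them below.

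**Figure D1:**
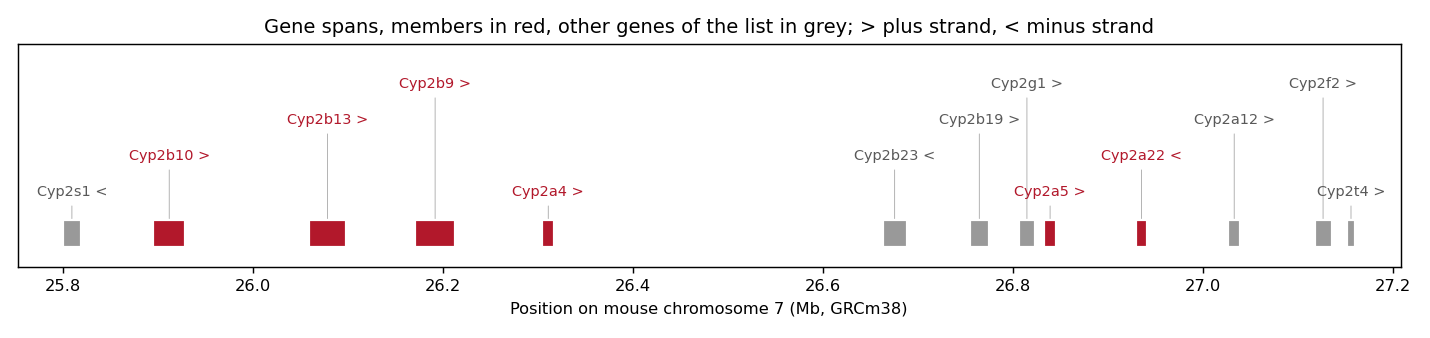
The *Cyp2* gene cluster on mouse chromosome 7 (GRCm38, position in bases on the horizontal axis), with 13 genes drawn to scale from start to end and the 6 members in red. The members are spread over 1041765 bases, with the *Cyp2b* genes at the left and the *Cyp2a* genes to their right.

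Between genes, levels were compared per kilobase of annotated exon. In WT livers on the control diet *Cyp2a5* stood far above the rest at a mean of 454 CPM per kilobase, followed by *Cyp2b10* at 1.03, *Cyp2a4* at 0.374, *Cyp2a22* at 0.221, *Cyp2b9* at 0.131 and *Cyp2b13* at 0.00194 CPM per kilobase. The ranges of the neighbours below *Cyp2a5* overlapped in this order. In GR LKO livers on the same diet the order of the means was *Cyp2a5* (491), *Cyp2a4* (30.4), *Cyp2b9* (12.2), *Cyp2b10* (7.57), *Cyp2a22* (0.971) and *Cyp2b13* (0.247). The *Cyp2a4* mean takes in a liver at 461 CPM, and the medians lay closer, at 8.22 for *Cyp2a4*, 6.66 for *Cyp2b9* and 6.64 for *Cyp2b10*. On caloric restriction the WT order was *Cyp2a5* (838), *Cyp2b9* (116), *Cyp2a4* (20.9), *Cyp2a22* (4.51), *Cyp2b10* (4.12) and *Cyp2b13* (3.19). In GR LKO livers on caloric restriction it was *Cyp2a5* (928), *Cyp2b9* (304), *Cyp2a4* (256), *Cyp2b13* (123), *Cyp2a22* (24.9) and *Cyp2b10* (22.8). *Cyp2b13* thus moved from last place to the place behind *Cyp2a4*. *Cyp2a22* and *Cyp2b10* were within each other's spread, as were *Cyp2b9* and *Cyp2a4*. Without the 2 libraries with pancreas markers the order of the WT means was the same on both diets, with *Cyp2a5* at 452 and 786.5 CPM per kilobase.

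**Figure D2:**
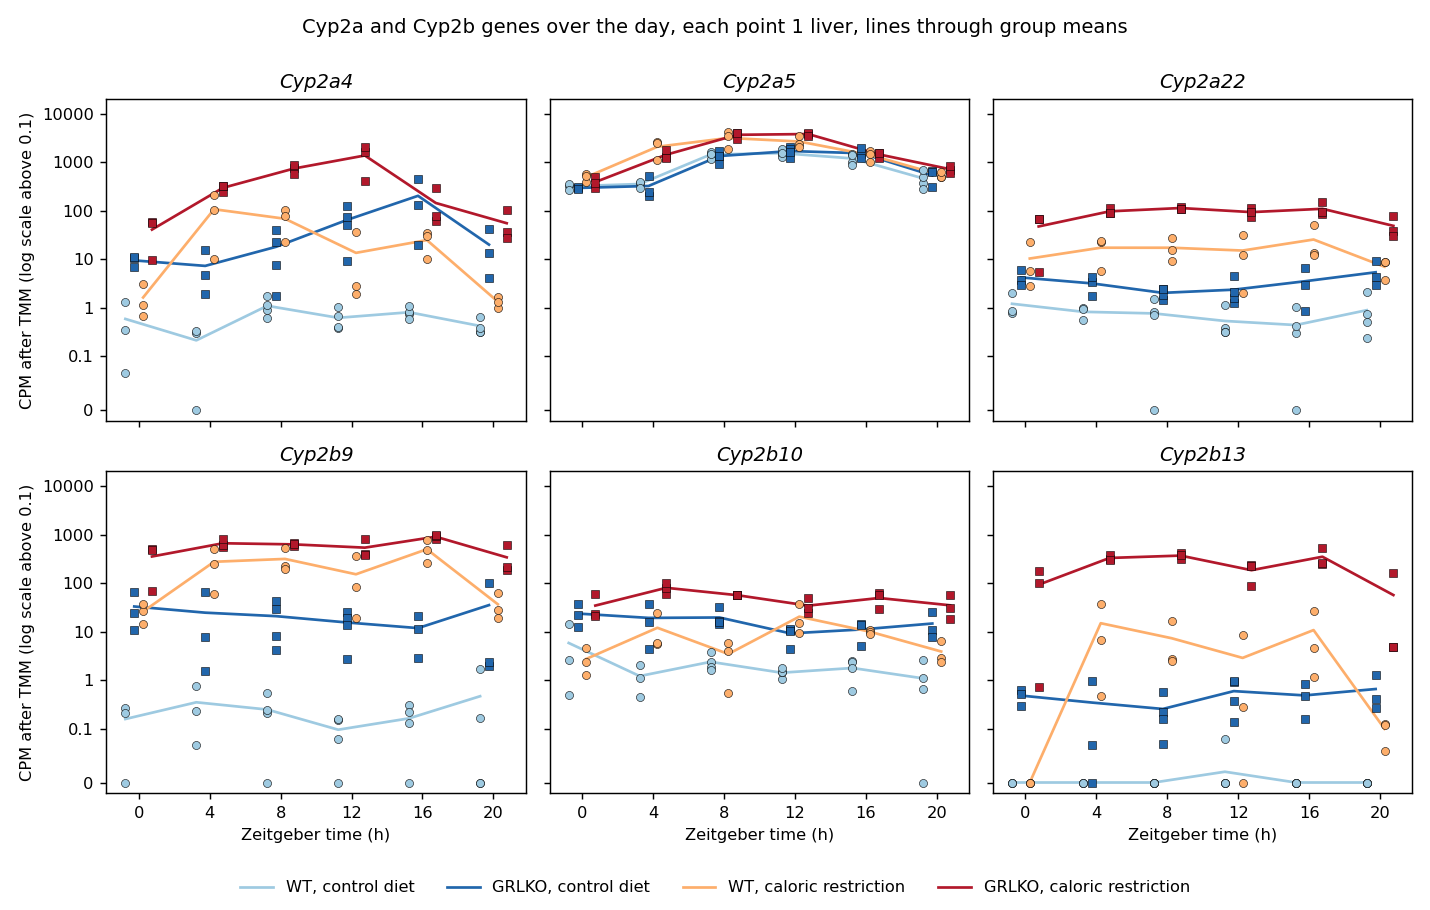
CPM after TMM (vertical axis, symmetric log scale, linear near 0) against Zeitgeber time in hours for each of the 6 genes, in WT and GR LKO livers on both diets. Points are single livers, shifted sideways for legibility, and lines join group means. *Cyp2a5* shows a daily wave in all 4 groups. The group means of the other 5 genes lie higher in GR LKO than in WT livers on both diets, while single livers overlap at some times. *Cyp2b13* lies near 0 in both genotypes on the control diet.

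Outside ZT12, mean levels of 5 of the 6 genes were higher in GR LKO than in WT livers on both diets, and *Cyp2a5* was the exception. A gene that reaches the filter on low counts only through its GR LKO livers had to differ, so members are counted here only where enough WT livers reach it as well, a rule set after the data were seen. On caloric restriction this leaves out *Cyp2b13* at ZT0, ZT4 and ZT20. Of the other 27 tests of a gene at a time point 9 were called (edgeR adjusted p under 0.05 over all genes of that fit), all of them higher in GR LKO. By time point, 4 of 6 members were called at ZT8 where 2.55% of all genes tested were, 2 of 6 at ZT16 (4.54% of all genes) and 3 of 5 at ZT20 (1.47%). At ZT0 edgeR called 0 of 5 members and 0.502% of all genes, with 3 members at an unadjusted p under 0.05 (13.2% of all genes) and 3 called by DESeq2 (3.56%). At ZT4 it called 0 of 5 members and 0.69% of all genes, with 2 members at an unadjusted p under 0.05 (14.6%) and 2 called by DESeq2 (3.74%). Every GR LKO liver lay above every WT liver in 21 of these 27 tests, the other 6 being the 5 of *Cyp2a5* and *Cyp2a22* at ZT0, and this was so for 9.52% to 12.4% of all genes tested at a time point.

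Under night-restricted feeding WT livers were so low in most members that few tests can be counted. *Cyp2b13* was not tested at single time points there. *Cyp2a4*, *Cyp2a22* and *Cyp2b9* reached the filter only through GR LKO livers at all 5 time points, and *Cyp2b10* did at ZT0, ZT4 and ZT20. Of the other members, *Cyp2b10* was called at ZT8 and ZT16 and *Cyp2a5* was not, 1 of 2 at each time, where 1.43% and 1.98% of all genes were. At ZT0, ZT4 and ZT20 *Cyp2a5* alone is left, and edgeR called 0 of 1 member and 0.536%, 0.195% and 0.42% of all genes, with 0 at an unadjusted p under 0.05 and 0 called by DESeq2. The further 5 edgeR calls, *Cyp2a4* at ZT16 and ZT20 and *Cyp2b9* at ZT0, ZT8 and ZT16, are given below with the values of each liver and are not counted as support. In whole liver, a change in the number of cells of a type and a change in RNA per cell cannot be told apart.

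Averaged over ZT0, ZT4, ZT8, ZT16 and ZT20 (15 WT and 15 GR LKO livers on caloric restriction, 18 and 16 on the control diet), 5 of 6 members were called on caloric restriction. Under control feeding 3 of the 4 members that reached the filter in WT livers too were called (*Cyp2a4*, *Cyp2a22* and *Cyp2b10*), while *Cyp2b9* and *Cyp2b13* passed it through GR LKO livers alone and are not counted. Only 3 libraries had to reach the cutoff, and 7 of 22 WT livers did for *Cyp2a4*, 11 of 22 for *Cyp2a22* and 17 of 22 for *Cyp2b10*. At single time points *Cyp2a4* and *Cyp2a22* reached the filter through GR LKO livers alone, which limits what their calls here can show. On caloric restriction *Cyp2b13* did so at ZT0, ZT4 and ZT20, and over the series 9 of 18 WT livers reached the cutoff. The same limit holds for its call. Among all genes tested, 26.7% were called on caloric restriction and 15.9% on the control diet, and 12.6% and 8.76% of all genes tested rose. In *Cyp2a5* the mean log2 difference was -0.04 (SE 0.13, edgeR adjusted p = 0.852) on caloric restriction and 0.04 (SE 0.13, edgeR adjusted p = 0.893) on the control diet. Each of these 8 calls was kept when any 1 library was left out. DESeq2 made all 8. These fits took in all 36 or 42 livers of a diet, so the ZT12 livers on which the genes were chosen had a part in the filter and in the estimates of spread. Fits on the 30 and 34 livers of the other times alone, added after the data were seen, made the same 8 calls, where 27.0% and 16.6% of all genes were called, and each was kept without any 1 of those livers. With the reads of close relatives pooled, the sum of *Cyp2a4* and *Cyp2a5* was 1.13 times as high in GR LKO as in WT livers on caloric restriction and 1.11 times on the control diet, outside ZT12. The *Cyp2b9*, *Cyp2b10* and *Cyp2b13* sum was 3.57 times as high on caloric restriction and 16.4 times on the control diet.

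*Cyp2a5*, the coumarin hydroxylase and by far the most abundant member, varied with the hour of the day, and no difference by genotype was called. On caloric restriction it ranged from 395 to 4230.5 CPM (median 1603) in 18 WT livers and from 294 to 4095 CPM (median 1431) in 18 GR LKO livers. In the control series the ranges were 275 to 1883 CPM (median 960.1) in 22 WT livers and 206 to 2112 CPM (median 1083) in 20 GR LKO livers. At ZT0 the restricted WT livers held 395, 579 and 519.5 CPM, and at ZT8 they held 4230.5, 1844 and 3479 CPM. JTK_CYCLE, which tests a 24 h rhythm, was run on the 5 time points other than ZT12, a choice made after the data were seen, and called *Cyp2a5* in all 4 groups of diet and genotype. Its JTK_CYCLE adjusted p on caloric restriction was 0.0096 in WT and 0.00629 in GR LKO livers (15 each), against 0.00135 in 18 WT and 0.0142 in 16 GR LKO livers on the control diet. The best-fitting template peaked at ZT8 in restricted WT livers and at ZT12 in the other 3 groups. All 4 calls held without any 1 liver. Over all 6 time points, the highest group mean was 6.40, 9.77, 4.84 and 5.77 times the lowest in these groups, in the same order.

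*Cyp2a4*, the steroid hydroxylase, was low in WT livers on the control diet, at 0 to 1.73 CPM (median 0.616), and reached 1.77 to 461 CPM (median 14.3) in GR LKO livers. On caloric restriction it ranged from 0.691 to 209 CPM (median 10.1) in WT and from 9.90 to 2084 CPM (median 271) in GR LKO livers. At ZT8 on caloric restriction it read 104, 23.2 and 78.8 CPM in the WT livers and 770.3, 898 and 567 CPM in the GR LKO livers. All 3 GR LKO livers lay above all 3 WT livers, and the log2 difference was 3.45 (SE 0.51, edgeR adjusted p = 0.019). At ZT20 it read 0.979, 1.72 and 1.33 CPM in the WT livers and 36.3, 102 and 28.2 CPM in the GR LKO livers, again without overlap, a log2 difference of 5.37 (SE 0.60, edgeR adjusted p = 0.0141). On the control diet the readings at ZT16 were 0.734, 0.836, 0.601 and 1.08 CPM in the WT livers and 20.2, 461 and 131 CPM in the GR LKO livers, a log2 difference of 7.95 (SE 1.11, edgeR adjusted p = 0.0152). At ZT20 on that diet they were 0.325, 0.325, 0.386 and 0.661 CPM in the WT livers and 43.1, 13.3 and 4.13 CPM in the GR LKO livers, a log2 difference of 5.58 (SE 0.84, edgeR adjusted p = 0.0455). In both contrasts every GR LKO liver lay above every WT liver, and the gene reached the filter through GR LKO livers alone. Over the 5 time points the mean log2 difference was 3.48 (SE 0.46, edgeR adjusted p = 1.53e-06) on caloric restriction and 5.31 (SE 0.53, edgeR adjusted p = 4.98e-09) on the control diet, where all 16 GR LKO livers lay above all 18 WT livers.

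The calls at single time points rested on few livers. For *Cyp2a4* on caloric restriction, the call at ZT8 was lost without WT replicate 3 or GR LKO replicate 1, 2 or 3 (adjusted p 0.0591 to 0.0788) and that at ZT20 without WT replicate 1, 2 or 3 (0.0703 to 0.1), and without GR LKO replicate 2 the ZT20 difference was 4.60. In control-fed mice the ZT16 call was lost without WT replicate 2 or 4 (0.0508 to 0.0588), and without GR LKO replicate 2, the liver at 461 CPM, the difference was 6.52. The ZT20 call was lost without WT replicate 1, 2, 3 or 4 or GR LKO replicate 2 (0.106 to 0.141), and without GR LKO replicate 1 the difference was 4.34. At ZT0 *Cyp2a4* missed the threshold on both diets (edgeR adjusted p = 0.0718 and 0.0709), and it passed without GR LKO replicate 1 on caloric restriction (0.0118) and without WT replicate 3 on the control diet (0.0269). At ZT8 on the control diet it missed at 0.0683 and passed without GR LKO replicate 1 (0.0175).

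*Cyp2a22* had no 31-base word in common with another member and gave a view of a *Cyp2a* gene free of their reads. On caloric restriction it ranged from 2.02 to 50.9 CPM (median 12.3) in WT and from 5.45 to 150.1 CPM (median 89.9) in GR LKO livers, while control-fed livers ranged from 0 to 2.08 CPM (median 0.728) and from 0.881 to 9.08 CPM (median 2.94). At ZT8 on caloric restriction it read 27.0, 15.8 and 9.38 CPM in the WT livers and 122, 109.8 and 111 CPM in the GR LKO livers. The groups did not overlap, and the log2 difference was 2.73 (SE 0.33, edgeR adjusted p = 0.0101). At ZT20 it read 3.73, 8.76 and 8.69 CPM in the WT livers and 38.1, 79.1 and 30.1 CPM in the GR LKO livers, also without overlap, a log2 difference of 2.80 (SE 0.45, edgeR adjusted p = 0.0351). The call at ZT8 was lost without GR LKO replicate 1, 2 or 3 (adjusted p 0.0517 to 0.0597) and the call at ZT20 without WT replicate 1, 2 or 3 or GR LKO replicate 1 or 2 (0.0521 to 0.134). It was gained at ZT4 without WT replicate 3 (0.00415) and at ZT16 without WT replicate 2 (0.00439), where all libraries gave 0.0691 and 0.0736. Under night-restricted feeding no single time point was called by edgeR, with 4 of 5 at an unadjusted p under 0.05 and 4 of 5 called by DESeq2, and at each time the gene reached the filter through GR LKO livers alone. Over the 5 time points the mean log2 difference was 2.46 (SE 0.35, edgeR adjusted p = 5.54e-06) on caloric restriction and 2.13 (SE 0.34, edgeR adjusted p = 2.04e-05) on the control diet, with 12 of 15 and 12 of 16 GR LKO livers above every WT liver of the same diet.

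*Cyp2b9* was the most abundant *Cyp2b* gene on caloric restriction, at 14.2 to 763 CPM (median 139) in WT and 69.5 to 964 CPM (median 598) in GR LKO livers. Under control feeding it was nearly silent in WT livers, where 18 of 22 held 3 counts or fewer, and read 1.54 to 101 CPM (median 12.5) in GR LKO livers. At ZT0 on the control diet it read 0.267, 0.206 and 0 CPM in the WT livers and 63.9, 10.6 and 24.2 CPM in the GR LKO livers. The WT libraries all held at most 3 counts, so the fold is a lower bound against 3 counts per library, at least 142-fold higher in GR LKO (edgeR adjusted p = 0.0382, 3 of 3 GR LKO livers above all WT livers). At ZT8 it read 0, 0.213, 0.243 and 0.531 CPM in the WT livers and 4.17, 8.18, 28.8 and 41.9 CPM in the GR LKO livers, a log2 difference of 6.32 (SE 0.98, edgeR adjusted p = 0.0147). At ZT16 it read 0.306, 0.129, 0 and 0.217 CPM in the WT livers and 11.6, 2.80 and 21.0 CPM in the GR LKO livers, a log2 difference of 6.06 (SE 0.82, edgeR adjusted p = 0.0136). No GR LKO liver fell to the level of a WT liver in these contrasts, in which the gene reached the filter through GR LKO livers alone. On the control diet the log2 ratios of group means, averaged over the 5 time points, came to 82.0-fold higher *Cyp2b9* in GR LKO livers. Only the WT mean at ZT0 was taken as 3 counts, so this average is an estimate and no lower bound. The fitted mean was called (edgeR adjusted p = 1.62e-08, 15 of 16 GR LKO livers above every WT liver), where 1 of 22 WT livers reached the cutoff of the filter. On caloric restriction the mean log2 difference was 2.02 (SE 0.35, edgeR adjusted p = 7.52e-05), with no call at a single time point by edgeR, 4 of 5 at an unadjusted p under 0.05 and 2 of 5 called by DESeq2.

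The *Cyp2b9* calls also depended on single livers. In the control series the ZT0 call was lost without WT replicate 1, 2 or 3 or GR LKO replicate 1 or 3 (adjusted p 0.0625 to 0.146), the ZT8 call without WT replicate 1, 2 or 3 (0.0639 to 0.0677) and the ZT16 call without WT replicate 2 (0.0532). The fitted ZT0 log2 difference was 7.67 with all livers and 6.75 without GR LKO replicate 1, the liver at 63.9 CPM, so the bound at ZT0 rests in part on that liver. The ZT8 difference was 7.05 without WT replicate 4 and 5.72 without GR LKO replicate 4, and the ZT16 difference was 5.35 without GR LKO replicate 3. The fitted mean over 5 time points, 6.47 on the log2 scale, was 5.67 without GR LKO replicate 2 at ZT20, the liver at 101 CPM, and 7.06 without WT replicate 3 at ZT20. On caloric restriction *Cyp2b9* passed the threshold at ZT0 without GR LKO replicate 1 (0.0118), at ZT8 without WT replicate 1 (0.00565) and at ZT16 without WT replicate 2 (0.0497).

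*Cyp2b10*, the CAR target, was the member with most calls at single time points, 3 on caloric restriction and 2 on the control diet, and the only one called at a time point on the control diet with enough counts in WT livers. On caloric restriction it ranged from 0.545 to 36.5 CPM (median 5.80) in WT and from 18.4 to 101 CPM (median 55.5) in GR LKO livers, and on the control diet from 0 to 14.4 CPM (median 1.68) and from 4.36 to 37.1 CPM (median 14.0). At ZT16 on caloric restriction it read 10.9, 9.99 and 8.84 CPM in the WT livers and 62.3, 29.5 and 55.8 CPM in the GR LKO livers. The groups lay well apart, with a log2 difference of 2.32 (SE 0.27, edgeR adjusted p = 0.0043), and this call was kept without any 1 liver. At ZT8 it read 3.89, 0.545 and 5.91 CPM in the WT livers and 55.4, 57.4 and 55.9 CPM in the GR LKO livers, a log2 difference of 4.03 (SE 0.55, edgeR adjusted p = 0.0141). At ZT20 it read 2.81, 6.45 and 2.37 CPM in the WT livers and 18.4, 55.5 and 30.5 CPM in the GR LKO livers, a log2 difference of 3.17 (SE 0.51, edgeR adjusted p = 0.0351), and no groups overlapped at these times. On the control diet at ZT8 it read 2.31, 1.85, 1.62 and 3.72 CPM in the WT livers and 16.5, 31.5, 14.5 and 15.5 CPM in the GR LKO livers. All 4 GR LKO livers lay above all 4 WT livers, the log2 difference was 3.02 (SE 0.33, edgeR adjusted p = 0.00354), and the call was kept without any 1 liver. At ZT16 it read 2.45, 2.32, 0.601 and 1.73 CPM in the WT livers and 5.10, 14.4 and 13.7 CPM in the GR LKO livers, again without overlap, a log2 difference of 2.61 (SE 0.47, edgeR adjusted p = 0.037). The mean over 5 time points was 3.18 (SE 0.29, edgeR adjusted p = 2.17e-09) on caloric restriction and 3.07 (SE 0.34, edgeR adjusted p = 4.02e-08) on the control diet, with 12 of 15 and 10 of 16 GR LKO livers above every WT liver of the diet.

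For *Cyp2b10* on caloric restriction the ZT8 call was lost without GR LKO replicate 1, 2 or 3 (adjusted p 0.0576 to 0.0676), and the difference was 4.67 without WT replicate 3. The ZT20 call was lost without WT replicate 1, 2 or 3 or GR LKO replicate 2 or 3 (0.061 to 0.158), and a call was gained at ZT4 without WT replicate 2 (0.00883). In control-fed mice the ZT16 call was lost without WT replicate 1, 2 or 4 or GR LKO replicate 2 or 3 (0.0617 to 0.116).

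*Cyp2b13* had the widest gap between genotypes on caloric restriction. It ranged from 0 to 37.5 CPM (median 0.824) in WT and from 0.733 to 538 CPM (median 244) in GR LKO livers. Under night-restricted feeding 21 of 22 WT livers held no count, and GR LKO livers stayed between 0 and 1.30 CPM (median 0.384). At ZT8 on caloric restriction it read 16.7, 2.67 and 2.44 CPM in the WT livers and 408, 320.3 and 377 CPM in the GR LKO livers. The lowest GR LKO liver was far above the highest WT liver, and the log2 difference was 5.67 (SE 0.73, edgeR adjusted p = 0.0125). At ZT16 it read 4.64, 26.4 and 1.179 CPM in the WT livers and 251, 257 and 538 CPM in the GR LKO livers, a log2 difference of 5.06 (SE 0.95, edgeR adjusted p = 0.0276) without overlap. At ZT0 it read 0, 0 and 0 CPM in the WT livers and 0.733, 100.1 and 177 CPM in the GR LKO livers, at least 585-fold higher against 3 counts per library. The fitted log2 difference at ZT0, 13.8 with all livers, ran from 12.9 to 14.3 over the left-out libraries and other settings, so this bound also depends on single livers. At ZT20 it read 0.122, 0.118 and 0.0579 CPM in the WT livers and 4.79, 160.2 and 4.73 CPM in the GR LKO livers, at least 316-fold higher, and this bound rests on the 1 liver at 160.2 CPM: the fitted log2 difference was 9.05 with it and 5.50 without it. Those contrasts missed the threshold (edgeR adjusted p = 0.209 and 0.102), and 1 of 3 GR LKO livers at ZT0 and 2 of 3 at ZT20 lay far below the highest. Over the 5 time points the mean log2 ratio came to 92.4-fold higher *Cyp2b13* in GR LKO livers on caloric restriction, with WT at ZT0 and ZT20 taken as 3 counts. The ratios of means at ZT4, ZT8 and ZT16 were 22.2, 50.7 and 32.5, so this average is an estimate and no lower bound. The ratio of the mean CPM of all livers outside ZT12 was 36.2. The fitted mean was called (edgeR adjusted p = 6.05e-07, 12 of 15 GR LKO livers above every WT liver), where 9 of 18 WT livers reached the cutoff of the filter. Under control feeding 15 of 16 GR LKO livers outside ZT12 lay above every WT liver, but WT was at the floor of 3 counts at all 5 time points and only 5 of 20 GR LKO livers reached the cutoff of the filter, so no test is read from it.

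The *Cyp2b13* call at ZT8 was lost without GR LKO replicate 1, 2 or 3 (adjusted p 0.0533 to 0.0606) and the call at ZT16 without WT replicate 1 or GR LKO replicate 1, 2 or 3 (0.0573 to 0.112). The difference was 7.17 without WT replicate 1 at ZT8 and 6.89 without WT replicate 2 at ZT16. The fitted mean over 5 time points on caloric restriction, 7.58 on the log2 scale, was 6.87 without GR LKO replicate 2 at ZT20, the liver at 160.2 CPM. Calls were gained without GR LKO replicate 1 at ZT0 (0.0118) and without GR LKO replicate 2 at ZT20 (0.00581).

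Summed, the 3 *Cyp2a* genes ranged from 400.4 to 4362 CPM (median 1638) in restricted WT livers and from 309 to 6270 CPM (median 1734) in restricted GR LKO livers. In the control series the sums were 277 to 1884 CPM (median 961) and 215 to 2165 CPM (median 1172). *Cyp2a5* made up 99.9% of the sum in control-fed WT livers at ZT12 and 72.2% in restricted GR LKO livers at that time, where *Cyp2a4* held 26.1%. The 3 *Cyp2b* genes summed to 18.8 to 799 CPM (median 151) in restricted WT and 93.4 to 1558 CPM (median 982) in restricted GR LKO livers, and to 0 to 14.4 CPM (median 1.93) and 6.03 to 113 CPM (median 29.6) on the control diet. The make-up of this sum differed between groups. *Cyp2b10* gave 90.6% of it in control-fed WT livers at ZT8, where GR LKO livers drew 51.3% from *Cyp2b9* and 48.1% from *Cyp2b10*. In restricted WT livers at ZT8, *Cyp2b9* gave 96.7%, and in restricted GR LKO livers *Cyp2b9* gave 59.6%, *Cyp2b13* 35.0% and *Cyp2b10* 5.35%. All 6 together summed to 429 to 4898 CPM (median 2012) and 402 to 6925 CPM (median 2949.6) on caloric restriction and to 284 to 1885 CPM (median 963) and 238 to 2203 CPM (median 1218) on the control diet. Sums were not tested.

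Whether the genotype difference itself differed between diets was tested at the 5 time points. edgeR called 0 of 30 tests of members, with 4 at an unadjusted p under 0.05 (6.03% to 10.5% of all genes at a time point) and 3 called by DESeq2. Among all genes edgeR called 0 at ZT0, 0 at ZT4, 0.081% at ZT8, 0.234% at ZT16 and 0 at ZT20. The 30 tests take in *Cyp2b13* at all 5 time points and *Cyp2b9* at ZT0, where a group held 3 counts or fewer. Those tests have no usable contrast value and cannot show whether the diets differed. The smallest adjusted p belonged to *Cyp2b9* at ZT16, where the log2 difference between genotypes was smaller on caloric restriction, with a restricted minus control value of -5.19 (SE 1.03, edgeR adjusted p = 0.0781). The same contrast was -5.32 (SE 1.25, edgeR adjusted p = 0.165) for *Cyp2b9* at ZT8 and -5.41 (SE 1.46, edgeR adjusted p = 0.197) for *Cyp2a4* at ZT16. These are the 3 that DESeq2 called, with 0.94% of all genes at ZT8 and 1.53% at ZT16. Over the left-out libraries and other settings, the contrast ran from -5.70 to -4.50 for *Cyp2b9* at ZT16 and from -6.06 to -4.71 at ZT8. For *Cyp2a4* at ZT16 it ran from -6.46 to -3.97. *Cyp2b9* at ZT16 passed the edgeR threshold without control-diet GR LKO replicate 2 (0.0108). Without the control-diet library with pancreas markers, the ZT16 contrast was -5.08 (SE 1.16, edgeR adjusted p = 0.168) for *Cyp2b9* and -5.42 (SE 1.63, edgeR adjusted p = 0.327) for *Cyp2a4*. The larger ratio of *Cyp2b9* on the control diet goes with WT livers near 0 there, at 0.306, 0.129, 0 and 0.217 CPM against 472, 763 and 258 CPM on caloric restriction.

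Of the other members, *Cyp2a4* was called rhythmic on the same 5 time points in restricted GR LKO livers (JTK_CYCLE adjusted p 0.00846, template peak at ZT8), and this call too held without any 1 liver. It was not called in restricted WT livers (0.0543), in control-fed WT livers (0.115) or in control-fed GR LKO livers (0.144), and differences in rhythm between groups were not tested. *Cyp2b9* was called in both genotypes on caloric restriction (0.0291 in WT and 0.0318 in GR LKO livers), as was *Cyp2b13* (0.0391 and 0.0263), and *Cyp2a22* in restricted GR LKO livers (0.0425). *Cyp2b10* was not called in any group. In restricted WT livers *Cyp2b13* reached the filter at 2 of 5 time points, so its call is not counted. Of the members that reached it at all 5, 2 of 5 were called in restricted WT livers, where 35.1% of all genes were, 5 of 6 in restricted GR LKO livers (32.3%), 1 of 1 in control-fed WT livers (34.8%) and 1 of 5 in control-fed GR LKO livers (25.3%). Over all 6 time points, which take in the livers the genes were chosen on, the planned JTK_CYCLE test called 3 of 6 (45.5% of all genes), 4 of 6 (42.6%), 1 of 4 (51.8%) and 2 of 6 (46.3%) in the same order. With 1 library left out these counts ran from 1 to 3, 2 to 4, 1 to 2 and 1 to 2, and they are not read as support. Of the 3 in restricted WT livers, *Cyp2a4* and *Cyp2b10* were not called without the library with pancreas markers (0.0683 and 0.132), and *Cyp2b10* was lost without any 1 of 15 of the 18 libraries. *Cyp2b9* and *Cyp2b13* in restricted WT livers and *Cyp2b9* in restricted GR LKO livers were called on 5 time points and not on 6, and the reverse held for *Cyp2a4* and *Cyp2b10* in restricted WT livers and *Cyp2a4* in control-fed GR LKO livers. An edgeR test of a sine and a cosine on 6 time points lost *Cyp2b10* in restricted WT livers (edgeR adjusted p = 0.108). In restricted GR LKO livers it lost *Cyp2a22* (edgeR adjusted p = 0.106) and *Cyp2b13* (edgeR adjusted p = 0.292). It gained *Cyp2a22* in control-fed GR LKO livers (edgeR adjusted p = 0.0374).

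The calls of *Cyp2b9*, *Cyp2b13* and *Cyp2a22* on 5 time points rested on few livers. In restricted WT livers *Cyp2b9* was lost without 1 of ZT0 replicates 1 or 3, ZT4 replicate 3, ZT8 replicate 1, ZT16 replicate 2, ZT20 replicate 2 (0.0552 to 0.0814) and *Cyp2b13* without 1 of ZT0 replicates 1, 2 or 3, ZT4 replicate 3, ZT8 replicate 1, ZT16 replicate 2, ZT20 replicates 1, 2 or 3 (0.0567 to 0.106), and *Cyp2a4* was gained without 1 of ZT0 replicate 3, ZT8 replicate 2 (0.0464 to 0.0484). In restricted GR LKO livers the call was lost for *Cyp2a22* without 1 of ZT0 replicates 2 or 3, ZT4 replicates 1 or 3, ZT8 replicates 1, 2 or 3, ZT16 replicate 2, ZT20 replicate 2 (0.0562 to 0.0845), for *Cyp2b9* without 1 of ZT0 replicate 1, ZT4 replicate 1, ZT16 replicates 1, 2 or 3 (0.0629 to 0.0842) and for *Cyp2b13* without 1 of ZT4 replicate 1, ZT8 replicate 1, ZT16 replicates 1 or 2, ZT20 replicates 1 or 3 (0.0504 to 0.0576). In control-fed WT livers *Cyp2a4* gained a call without ZT0 replicate 3 (0.0124).

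In the diet experiment, whose values helped to choose the genes, all 6 stood higher in 3 restricted than in 3 control livers, with overlap in *Cyp2a5* alone. Among all genes tested there 47.1% were called, and nothing is read from that share for members chosen on the same contrast. *Cyp2a4* read 0.1003, 0.157 and 0.264 CPM in control and 20.9, 39.6 and 8.74 CPM in restricted livers. *Cyp2a22* read 0.902, 2.33 and 0.712 CPM and 18.9, 17.9 and 5.30 CPM, and *Cyp2a5* read 419, 666 and 428 CPM and 1039, 1115 and 606 CPM. *Cyp2b9* read 0.251, 0.471 and 0.0791 CPM and 310.3, 335 and 286 CPM. *Cyp2b9* alone made up 97.9% of the *Cyp2b* sum of restricted livers. *Cyp2b10* and *Cyp2b13* had 3 counts or fewer in every control library, which sets a lower bound for the fold of 38.3 for *Cyp2b10* and 47.4 for *Cyp2b13*, with restricted livers at 2.89, 4.18 and 1.83 CPM and 3.83, 6.03 and 1.17 CPM.

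The make-up of the liver RNA differed in this experiment as well. Of 7 hepatocyte markers 4 rose with restriction (*Tat* 2.96, *Cps1* 1.06, *Alb* 0.99 and *Hnf4a* 0.69) and 1 fell (*Serpina1c* -0.92), and from lowest to highest liver their sums were 88440, 89122 and 94651 CPM in control and 159210, 160510 and 166800 CPM in restricted livers, led by *Alb* and with none at 0. Of 3 adipocyte markers tested 2 fell (*Car3* -3.04, the most abundant, and *Cidec* -1.73) and 1 rose (*Fabp4* 1.12), with sums of 1147, 1161 and 1179.5 CPM in control and 77.1, 104 and 272 CPM in restricted livers and *Plin1*, *Lep* and *Retn* at 0 in all 6 livers and *Cfd* in the restricted ones. Of 6 endothelial markers 4 rose (*Lyve1* 0.98, *Stab2* 0.67, *Clec4g* 0.66 and *Pecam1* 0.42; 116, 149 and 153 CPM in control and 194, 194 and 222 CPM in restricted livers, led by *Kdr* in control and *Clec4g* in restricted livers), and of 4 cholangiocyte markers tested 2 (*Sox9* 1.24 and *Krt19* 1.00; 46.7, 47.5 and 49.0 CPM in control and 38.2, 38.6 and 58.3 CPM in restricted livers, led by *Spp1*, with *Epcam* at 0). Of 3 lymphocyte markers tested 2 fell (*Cd79a* -3.78 and *Cd4* -3.44; 4.82, 5.24 and 6.21 CPM in control and 0.794, 0.901 and 1.01 CPM in restricted livers, led by *Cd4* in control and *Cd8a* in restricted livers), and of 5 erythrocyte markers tested 1 (*Alas2* -2.89; 465, 642 and 1091 CPM in control and 207, 348 and 589.9 CPM in restricted livers, led by *Hbb-bs*). edgeR called 0 of 8 Kupffer and myeloid markers (1 at an unadjusted p under 0.05, 0 by DESeq2), with sums of 101, 118 and 125 CPM in control and 80.3, 119 and 127 CPM in restricted livers, led by *Clec4f*. No neutrophil marker passed the filter on low counts, and their sums reached at most 0.759 CPM. The part of these markers in the differences of the members was not tested.

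**Figure D3:**
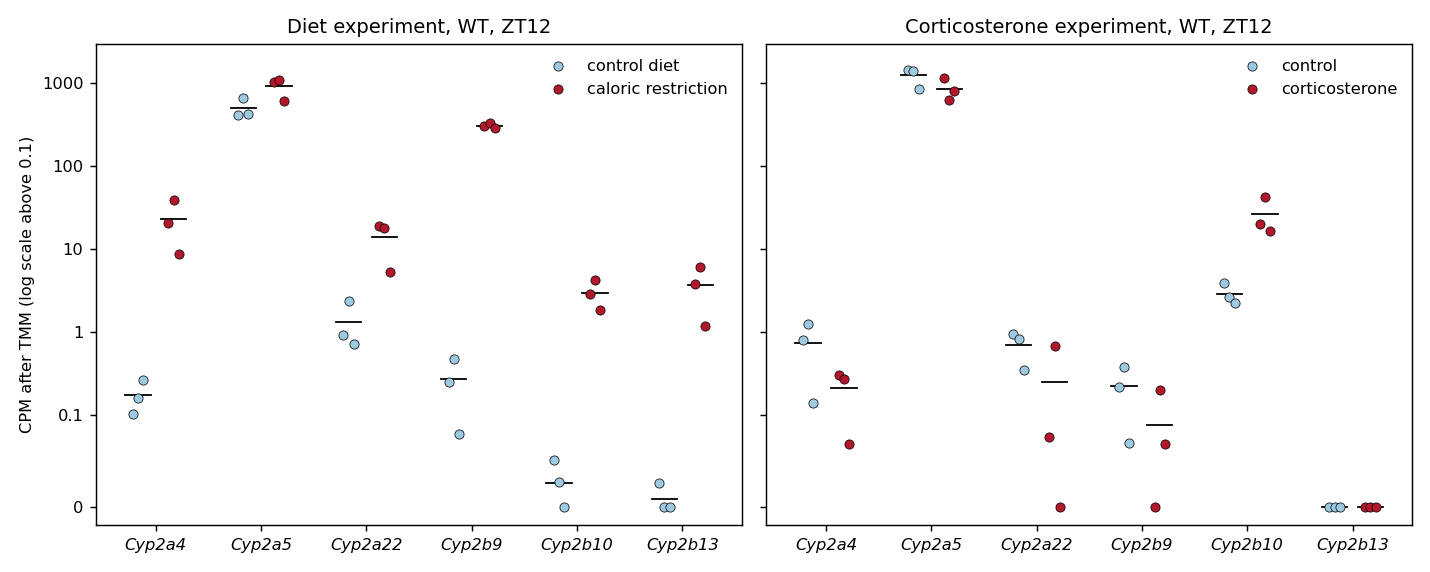
CPM after TMM (vertical axis, symmetric log scale, linear near 0) of the 6 genes at ZT12 in the diet experiment and in the corticosterone experiment. Points are single livers (3 per group) and short bars are group means. All 6 genes have a higher mean on caloric restriction, and *Cyp2b10* lies higher with corticosterone, at 16.3 to 42.3 CPM against 2.20 to 3.88 CPM in controls.

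With corticosterone *Cyp2b10* rose in control-fed mice. *Cyp2b10* read 3.88, 2.61 and 2.20 CPM in the controls and 19.99, 42.3 and 16.3 CPM with corticosterone. All 3 treated livers lay above all 3 controls, and the means differed 9.05-fold (log2 difference 3.18, SE 0.42, edgeR adjusted p = 0.00782). The call was lost without control replicate 2 (adjusted p 0.053). *Cyp2a5* read 1465, 1414 and 867 CPM in the controls and 1149, 637 and 806 CPM with corticosterone, a log2 difference of -0.53 (SE 0.27, edgeR adjusted p = 0.263). So 1 of 2 members tested was called, and 8.11% of all genes were. The other 4 did not pass the filter on low counts. *Cyp2b13* had no count in any of the 6 livers, *Cyp2b9* read at most 0.373 CPM, *Cyp2a4* at most 1.24 CPM and *Cyp2a22* at most 0.933 CPM. *Cyp2b10* thus made up 93.0% of the *Cyp2b* sum in controls and 99.7% with corticosterone. *Nr3c1* itself read 69.5 to 77.5 CPM in the controls and 61.7 to 83.9 CPM with corticosterone.

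Markers of cell types moved in the corticosterone contrast too. From lowest to highest liver, the list sums were 100040, 105830 and 106870 CPM in controls and 97615, 106510 and 108400 CPM with corticosterone for 7 hepatocyte markers, led by *Alb*, of which 2 rose (*Tat* 1.35 and *Hnf4a* 0.84). Of 8 Kupffer and myeloid markers 1 rose (*Marco* 1.58), with sums of 66.9, 84.2 and 94.9 CPM in controls and 86.9, 112 and 136 CPM with corticosterone, led by *Clec4f*. Of 3 adipocyte markers tested 1 fell (*Car3* -0.90, the most abundant, with *Plin1* at 0; 2571, 2772 and 3327 CPM in controls and 1225, 1692 and 1745 CPM with corticosterone), of 6 endothelial markers 1 (*Kdr* -0.62; 95.1, 102 and 120.4 CPM in controls and 77.0, 85.9 and 92.0 CPM with corticosterone, led by *Clec4g*) and of 4 cholangiocyte markers 1 (*Sox9* -1.16; 26.01, 35.4 and 39.0 CPM in controls and 24.4, 26.4 and 46.9 CPM with corticosterone, led by *Spp1*, with *Epcam* at 0). edgeR called 0 of 5 erythrocyte markers (list median -0.89), with 5 at an unadjusted p under 0.05 and 5 called by DESeq2, and sums of 633, 698 and 789 CPM in controls and 299.7, 327 and 562 CPM with corticosterone, led by *Hbb-bs*. It also called 0 of 1 neutrophil marker tested (*S100a9*, log2 difference 1.82; 1 at an unadjusted p under 0.05, 0 by DESeq2), with sums of 0.0718, 0.618 and 0.622 CPM in controls and 1.43, 1.79 and 1.82 CPM with corticosterone, led by *S100a9* and with *Ly6g* and *Mpo* at 0. Of lymphocyte markers it called 0 of 1 tested (*Cd4*, -1.33; 1 at an unadjusted p under 0.05, 0 by DESeq2), with sums of 1.51, 3.98 and 5.02 CPM in controls and 0.749, 1.06 and 1.59 CPM with corticosterone, led by *Cd4* and with *Ms4a1* at 0 in the treated livers. Their part in the difference of *Cyp2b10* was not tested.

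Across the 12 groups of genotype and time on a diet, members other than *Cyp2a5* followed each other. On caloric restriction Pearson's r of log2 group means was 0.985 for *Cyp2a22* with *Cyp2b13*, 0.914 for *Cyp2a4* with *Cyp2b13* and 0.722 for *Cyp2a4* with *Cyp2b10*, the lowest of these pairs. For *Cyp2a5* with another member r was 0.236 to 0.644, and on the control diet it was -0.29 to 0.33. The 12 groups share the genotype step, so these values describe the pattern and carry no test. Among 11426 genes with a mean of at least 1 CPM, the pattern of *Cyp2a5* was most like that of *Tef* (r 0.972, and 0.937 on the control diet), a PAR bZIP transcription factor of the clock output, of *Lrp4* (0.967 and 0.968) and of *Gcnt2* (0.966 and 0.754). That of *Cyp2a4* was most like *Abcc4* (0.942 and 0.611), an efflux transporter, *Adssl1* (0.934 and 0.722) and *Idh2* (0.932 and 0.918). Members were left out of these rankings, and *Cyp2a22* and *Cyp2b13* were nearer to each other (0.985) than to any gene outside the members. Outside the members they shared the same 3 nearest genes: *Slc22a27* (0.973 and 0.965 on caloric restriction), *Slc22a26* (0.969 and 0.965) and *Hamp2* (0.965 and 0.963). Outside the members, *Cyp2b9* was nearest to *Plcl2* (0.910), *Snap29* (0.901) and *Slc22a27* (0.890), while its r with the member *Cyp2b13* was 0.899. *Cyp2b10* was nearest to the gene ENSMUSG00000091166 (0.918), *Tfam* (0.912) and *Hao2* (0.886). On the control diet *Snap29* with *Cyp2b9* was at 0.444 and *Tfam* with *Cyp2b10* at 0.326, while *Hao2* with *Cyp2b10* was at 0.952. Without the 2 libraries with pancreas markers *Adssl1*, *Snap29* and *Tfam* were no longer among the 3 nearest and *Vldlr*, *Inpp1* and *Klk1b4* took their places, while r between members other than *Cyp2a5* was at least 0.725 on caloric restriction and that of *Cyp2a5* with another member 0.219 to 0.620.

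Receptors and transcription factors known to act on *Cyp2a* or *Cyp2b* genes had log2 differences of at most 0.38 in size where called by genotype. Of 18 in this list tested on caloric restriction 3 rose and 1 fell in GR LKO livers (median log2 difference 0.00), where 12.6% of all genes rose and 14.1% fell. An unadjusted p under 0.05 was reached by 5 of the 18 (37% of all genes), and DESeq2 called 5 (27.7%). *Ghr*, the growth hormone receptor, rose by 0.38 (SE 0.06, edgeR adjusted p = 1.08e-05), *Stat5a* by 0.24 and *Nfe2l2* by 0.13, and *Hnf4a*, a master regulator of hepatocytes, had a log2 difference of -0.12. The CAR gene *Nr1i3* was at -0.18, SE 0.07, edgeR adjusted p = 0.0529 and the PXR gene *Nr1i2* at -0.01, SE 0.06, edgeR adjusted p = 0.966, neither called. In control-fed mice 3 of 18 rose and 1 fell (median 0.06; 8.76% and 7.18% of all genes): *Esr1* by 0.31, *Nfe2l2* by 0.24 and *Ghr* by 0.14 upwards and *Hnf4a* at -0.17. On that diet 7 of the 18 had an unadjusted p under 0.05 (28.1% of all genes), and DESeq2 called 5 (16.9%). *Nr1i3* was not called there either (-0.20, SE 0.14, edgeR adjusted p = 0.378). With corticosterone 2 of 17 rose (*Hnf4a* 0.84 and *Rxra* 0.51) and 3 fell (*Foxa2* -1.22, *Cebpa* -0.68 and *Stat5a* -0.66), where 4.47% of all genes rose and 3.64% fell (list median 0.44). Those 5 calls became 0 without CORT replicate 1 or control replicate 2, 1 without CORT replicate 3 and 2 without control replicate 1 or 3. In the diet experiment 6 of 18 rose and 8 fell (median -0.17; 23.5% and 23.6% of all genes), with *Dbp*, a clock output factor, at -3.22 and *Ghr* at -0.88 downwards and *Esr1* at 1.26 upwards.

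Other genes that CAR or PXR are known to induce moved in both directions. Of 22 tested on caloric restriction 10 rose and 4 fell in GR LKO livers (median 0.14). *Cyp2c55* rose by 1.43 (SE 0.26, edgeR adjusted p = 0.000168), *Abcc4* by 1.03 and *Abcc3*, an efflux pump of bile acid conjugates, by 0.78. *Gstm3* (-1.21), *Cyp2c54* (-0.46) and *Gstm2* (-0.38) fell. Under night-restricted feeding 8 rose and 2 fell of 22 (median 0.00). With corticosterone *Cyp3a13* rose by 0.77 and *Gsta4* had a log2 difference of -0.49, and the other 20 of 22 were not called (median -0.10). These 2 calls became 0 without CORT replicate 3 or without any 1 of the controls, and 7 without CORT replicate 2. In the diet experiment 11 rose and 5 fell of 22 (median 0.27), 10 in all without restricted replicate 2. The partners that P450 enzymes need, electron donors and heme synthesis, gave 5 rises and 3 falls among 13 on caloric restriction (median 0.10). *Cyb5r3* (0.32), *Alad* (0.19) and *Cyb5a* (0.15) rose, and *Alas1*, the rate-limiting enzyme of heme synthesis (-0.52), *Por*, the P450 reductase (-0.34), and *Cpox* (-0.17) fell.

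Under control feeding 6 of the 13 partner genes rose and 0 fell by edgeR (median 0.08), with 8 of the 13 at an unadjusted p under 0.05 and 6 called by DESeq2. That count was 3 with no filter on low counts and 3 without 1 of WT ZT0 replicate 3, WT ZT4 replicate 1, WT ZT20 replicate 2, GR LKO ZT8 replicates 1 or 3 and GR LKO ZT16 replicate 1. With corticosterone 2 of 13 rose (median -0.09). *Alas1* rose by 1.93 (SE 0.22, edgeR adjusted p = 0.00456; 372 CPM in controls, 1414 CPM with corticosterone, 3 livers each) and *Por* by 1.38 (SE 0.25, edgeR adjusted p = 0.02), and 1 of these calls was left without control replicate 2 or 3. In the diet experiment 2 of 13 rose and 6 fell (median -0.21), *Por* at 1.16 and *Alas1* at -1.29.

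Sex-biased liver genes outside the members were counted because *Cyp2a4*, *Cyp2b9* and *Cyp2b13* are female-predominant. Of 18 female-predominant genes tested on caloric restriction 8 rose and 2 fell in GR LKO livers (median 0.36). *Hao2* rose by 5.31 (SE 0.35, edgeR adjusted p = 7.54e-12; means 0.190 and 8.68 CPM), *Slc22a26* by 3.82 and *A1bg* by 2.66, while *Cyp17a1* (-3.59) and *Cyp3a44* (-1.14) fell. Which group of livers reached the filter on low counts was checked for the members and not for listed genes or markers. Low listed genes may therefore have passed it through the higher group alone, *Hao2* with its WT mean of 0.190 CPM among them. The counts of calls in lists carry this limit in every contrast. In the control series 8 of 14 rose and 1 fell (median 1.04). Of 19 male-predominant genes on caloric restriction 2 rose, *Cyp4a12a* (1.49) and *Keg1* (1.02), and 9 fell (median -0.34), with *Mup7* (-2.64), *Slco1a1* (-1.77) and *Serpina12* (-1.45) in front. On the control diet 3 of 20 rose and 14 fell (median -0.70). In the diet experiment 14 of 14 female-predominant genes rose (median 3.94) and 20 of 20 male-predominant genes fell. With corticosterone edgeR called 0 of 9 female-predominant genes (1 at an unadjusted p under 0.05, 0 by DESeq2; median 0.65) and 0 of 20 male-predominant genes (6 at an unadjusted p under 0.05, 2 by DESeq2; median -0.22), and without CORT replicate 2 the latter count was 1.

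None of the members' neighbours in the cluster was called as rising. Of *Cyp2a12*, *Cyp2b19*, *Cyp2b23*, *Cyp2f2*, *Cyp2g1*, *Cyp2s1* and *Cyp2t4*, 4 were tested on each diet. On caloric restriction edgeR called *Cyp2f2*, at -0.33, SE 0.08, edgeR adjusted p = 0.00276, and no other (list median 0.00). *Cyp2a12*, which adjoins *Cyp2a22* and shares 31-base words with it, was at 0.04, SE 0.07, edgeR adjusted p = 0.706. In control-fed mice *Cyp2f2* (-0.26) and *Cyp2a12* (-0.21) fell (list median -0.04). In the diet experiment *Cyp2f2* fell (-1.25, SE 0.25, edgeR adjusted p = 0.00633) and the other 3 tested were not called (list median -0.86), while 2 of the 4 were called without control replicate 1 or restricted replicate 1. With corticosterone edgeR called 0 of 2 (1 at an unadjusted p under 0.05, 1 by DESeq2; list median -0.27), and 1 of 2 without CORT replicate 2.

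Some markers of other cell types moved with genotype as the members did. On caloric restriction the 8 adipocyte markers summed to 216 to 3255 CPM (median 713) in WT and 1493 to 7436 CPM (median 3696) in GR LKO livers, and to 2001 to 4464 CPM (median 3453) and 2945 to 9463 CPM (median 5875) on the control diet. *Car3*, which hepatocytes also express, was the most abundant of them in every group. On caloric restriction 2 of the 4 tested rose (*Car3* 1.81 and *Cidec* 3.04) and on the control diet 3 of 4 (*Car3* 0.87, *Cidec* 2.76 and *Cfd* 6.44). The defining adipocyte gene *Plin1* had no count in any library, *Adipoq* read at most 1.37 CPM and *Lep* at most 0.0643 CPM in the time series. Of 6 endothelial markers 4 rose on caloric restriction (*Lyve1* 1.10, *Kdr* 0.23, *Pecam1* 0.21 and *Cdh5* 0.18), with sums of 149 to 213 CPM (median 172) in WT and 168 to 237 CPM (median 205) in GR LKO livers, led by *Kdr* or *Clec4g* and with none at 0. Under night-restricted feeding edgeR called 0 of these 6 (list median -0.05, 1 at an unadjusted p under 0.05, 0 by DESeq2), with sums of 73.8 to 182 CPM (median 132) and 73.9 to 185 CPM (median 129). Of 5 lymphocyte markers 1 rose on caloric restriction (*Cd79a* 1.20), with sums of 0.674 to 5.13 CPM (median 2.06) and 0.576 to 8.22 CPM (median 1.86), led by *Cd4*, *Cd79a* or *Cd8a*. Under control feeding edgeR called 0 of 5 lymphocyte markers (1 at an unadjusted p under 0.05, 0 by DESeq2). Of 5 erythrocyte markers tested only *Alas2* was called, rising by 1.25 on caloric restriction and 0.61 on the control diet, with list sums of 245 to 1238 CPM (median 394) and 355 to 3842 CPM (median 461) on the former and 284 to 1548 CPM (median 528) and 405 to 1401 CPM (median 634) on the latter, led by *Hbb-bs* in nearly every group. edgeR called 0 of 8 Kupffer and myeloid markers on either diet (0 at an unadjusted p under 0.05, 0 by DESeq2) and 0 of 4 cholangiocyte markers (1 at an unadjusted p under 0.05 on each diet, by DESeq2 1 on caloric restriction and 0 on the control diet). Of neutrophil markers it called 0 of 2 tested on caloric restriction and 0 of 1 on the control diet (0 at an unadjusted p under 0.05, 0 by DESeq2). Of 7 hepatocyte markers 6 fell on caloric restriction and 4 on the control diet, *Alb* at -0.18 and -0.21. The part of any of these in the rise of the members was not tested.

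The promoters of 5 members share a short run of bases. RefSeq (GRCm38.p6) gave the 250 bases before the start of all 6 genes. Distances here count from these RefSeq starts, which lie 2 to 38 bases from the GENCODE starts given above. Those of *Cyp2a4* and *Cyp2a5*, of which only *Cyp2a4* was called by genotype, were 97.6% identical, and those of *Cyp2b9* and *Cyp2b13* 99.2%. *Cyp2b10* was 71.4% identical to either of these, and all other pairs were at 48.0% to 53.9%. The letters TTGNATAA, chosen after the sequences were seen and sought on both strands, occur once in the 250 bases of every member but *Cyp2a22*, and also in *Cyp2b19* and *Cyp2b23*. They occur in 847 of 32851 promoters of the same length (2.58%). The stretch from 120 to 41 bases before the start is shown for the members because it holds this run, marked in capitals. For *Cyp2a22*, on the minus strand (chr7:26939427-26939506), it holds none. The others are on the plus strand, at chr7:26307072-26307151 (*Cyp2a4*), chr7:26835219-26835298 (*Cyp2a5*), chr7:26173289-26173368 (*Cyp2b9*), chr7:25897538-25897617 (*Cyp2b10*) and chr7:26061375-26061454 (*Cyp2b13*).
Cyp2a4: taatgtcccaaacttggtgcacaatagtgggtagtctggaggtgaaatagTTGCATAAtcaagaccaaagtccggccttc
Cyp2a5: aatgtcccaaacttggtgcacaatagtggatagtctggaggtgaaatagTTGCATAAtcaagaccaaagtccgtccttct
Cyp2a22: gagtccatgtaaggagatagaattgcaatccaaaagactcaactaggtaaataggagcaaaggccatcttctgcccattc
Cyp2b9: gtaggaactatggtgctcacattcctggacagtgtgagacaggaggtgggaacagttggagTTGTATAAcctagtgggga
Cyp2b10: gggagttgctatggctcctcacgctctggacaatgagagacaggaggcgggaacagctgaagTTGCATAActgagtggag
Cyp2b13: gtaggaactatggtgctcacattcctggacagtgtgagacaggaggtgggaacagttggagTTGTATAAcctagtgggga
The stretches of *Cyp2b9* and *Cyp2b13* are the same 80 bases. TTGCATAA lies 70 to 63 bases before the start in *Cyp2a4* and 71 to 64 in *Cyp2a5* and 58 to 51 in *Cyp2b10*. TTGTATAA lies 59 to 52 bases before the start in both *Cyp2b9* and *Cyp2b13*.

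The D-box form TTANGTAA, present in 2.06% of all promoters, the 15-base palindrome to which the glucocorticoid receptor is known to bind (0.00913%) and the STAT form TTCNNNGAA (7.02%) were not found on either strand in the 250 bases of any member. These windows say nothing of sites further away.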

How the data were processed

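Liver poly(A) RNA of 90 mice was sequenced. The authors quantified reads with Salmon against mm10 and deposited estimated counts per gene, not normalized, with the transcript annotation not stated. The 6 deposited columns of VST values were not used. Of 27654 gene identifiers per table, 27244 had a symbol.

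Estimated counts were rounded and tested in R 4.3.3 with edgeR 4.0.16 (quasi-likelihood F test, TMM, filterByExpr with a minimum count of 10), each comparison on its own libraries. P-values were adjusted by Benjamini-Hochberg over all genes tested and called under 0.05. Levels are CPM with TMM factors of each table. A fold against a group with 3 counts or fewer in every library is a lower bound against 3 counts. Rhythm was tested with JTK_CYCLE (period 24 h, 6 phases) on log2 CPM after adding 0.5. Alternatives were DESeq2 1.42.0, RLE factors, no filter, a replicate block, a single fit per diet, and leaving out each library. For rhythm on 6 time points an edgeR quasi-likelihood F test of a sine and a cosine was a further alternative. Rhythm without the ZT12 livers, and levels per kilobase and correlations without the 2 libraries with pancreas markers, were added after the data were seen, as were the mean genotype effect fitted without the ZT12 livers and the count of only those members whose WT livers reach the filter.

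Members and gene lists were chosen with earlier results of these data known. Named are all members, any cluster neighbour and any listed receptor or transcription factor, and of each other list the 3 largest rises and falls called in the mean genotype effect on caloric restriction. For each member the 3 genes outside the members that were most alike in pattern are named. Marker genes, *Cyp3a13*, *Gsta4* and the nearest genes without the 2 libraries were named after their values were seen. 1 list of cell-type markers is not reported here.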

Additional observations from a re-analysis of the deposited data

Results flagged for a closer look

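In 6 groups of 4 livers on the control diet, 31 sets of a gene in a group were tested for a liver far from the others, and 3 were flagged. Chance flags about 1 in 20 sets. *Cyp2a22* read 1.13 CPM in WT replicate 1 at ZT12 on the control diet, where the other 3 livers read 0.319 to 0.381 CPM. *Cyp2b9* read 1.70 CPM in WT replicate 3 at ZT20 on the control diet, where the others read 0 to 0.1625 CPM. *Cyp2b10* read 31.5 CPM in GR LKO replicate 2 at ZT8 on the control diet, where the others read 14.5 to 16.5 CPM. Why these livers stood apart was not tested.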

How the results depend on the processing

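No called result changed direction under any setting that gave an adjusted p. Counts of member tests called moved over 1.5 times in these cases, and the cause was not tested. By time point on caloric restriction, 9 calls became 18 with DESeq2 and 16 with 1 fit of all libraries of the diet. On the control diet, 7 calls became 16 with DESeq2 and 14 with 1 fit. Among all genes at a time point, DESeq2 called 3.56% to 7.9% on caloric restriction and 1.61% to 5.43% on the control diet. The shares under 1 fit are not given here. On the control diet, members whose WT livers reach the filter as well had 1 DESeq2 call at ZT8, 1 at ZT16 and 0 at ZT0, ZT4 and ZT20. For the interaction of genotype and diet, 0 calls became 3 with DESeq2 and 1 with the replicate block. RLE factors and no filter moved none of these counts by as much. Leaving out 1 library gave 5 to 12 calls by time point on caloric restriction, 4 to 8 on the control diet, 5 in each mean over 5 time points, 0 to 1 for the interaction, 0 to 1 for corticosterone, 8 to 11 for rhythm (10 with all) and 63 to 73 called list genes for diet (72 with all, 1 gene being in 2 lists). Counts by time point and over means here include members that passed the filter on low counts through GR LKO livers alone, most of them on the control diet. Counting only members whose WT livers reach it as well, chosen after the data were seen, left 9 calls by time point and 5 in the mean on caloric restriction, and took the control diet from 7 to 2 by time point and from 5 to 3 in the mean. Fits of the mean on the livers of the 5 time points other than ZT12 alone, also chosen after the data were seen, gave 5 and 5. Of the 27 member tests by genotype or corticosterone called, 12 were kept without any 1 library and 22 under every other setting that gave an adjusted p. DESeq2 gave none for *Cyp2b13* in the mean over 5 time points on the control diet. The 27 take in calls on the control diet that are not counted as support. These are *Cyp2a4* and *Cyp2b9* at single time points and the means of *Cyp2b9* and *Cyp2b13*. The means of *Cyp2b9* and *Cyp2b13* are among the 12. Replicate numbers do not mark pairs: of 44 pairs of same-numbered livers, 3 had deviations correlated over 0.1 (r -0.142 to 0.202). With the replicate block, the counts by time point were 11 on caloric restriction and 5 on the control diet, the means over 5 time points gave 5 and 5, corticosterone 1 and diet 71. JTK_CYCLE on the 5 time points other than ZT12, chosen after the data were seen, called 10 member tests as did the test on 6, though not the same 10. Of the 10 calls on 6 time points, 5 were kept without any 1 library. Among gene lists, the P450 partners on the control diet went from 6 calls to 3 with no filter and to 3 with the block. With corticosterone the receptors and transcription factors went from 5 to 8 with DESeq2 and to 3 with the block, other CAR or PXR genes from 2 to 5 and to 1, male-predominant genes from 0 to 2 with DESeq2 and cluster neighbours from 0 to 1 with DESeq2. Cluster neighbours in the diet experiment went from 1 to 2 with DESeq2 and with the block. Genes at a few counts per library, such as *Cyp2b13* on the control diet, are limited by depth to lower bounds.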
